A study of Mus musculus with 6 samples.

Results

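The proteasome genes of mouse regulatory T cells (Treg) are described here, in cells with and without inositol polyphosphate multikinase (IPMK). They were taken by name, as every gene symbol made of Psm, a letter from a to g and then a digit, with pseudogene symbols (-ps) left out. The rule found 50 genes among the 23282 entries of each library, and no other symbol in the files began with Psm. Of these, 48 encode subunits, activators, inhibitors or assembly factors of the proteasome or paralogs of them that are restricted to certain tissues, 1 is the intronless copy Psme2b, and 1, Psmc3ip, encodes a meiotic recombination cofactor that shares only the first letters of its name with the family.

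Treg are CD4 T cells that hold other immune cells in check. Unstimulated cells sorted by flow cytometry from C57BL/6 spleens gave 3 IPMK conditional knockout (IPMK cKO) libraries and 3 wild type libraries. The sources used here do not give the Cre line, the deleted exons, the age of the mice or the number of mice behind each library. Each library is labelled a biological replicate but not tied to an animal, so a p-value reflects no more than the scatter among these 6 samples, some of which can be technical. In bulk RNA, fewer cells of a type and less RNA per cell cannot be told apart.

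The proteasome is the barrel-shaped protease that degrades proteins tagged with ubiquitin. Its core particle is built from rings of alpha subunits (Psma genes), which gate the barrel, and rings of beta subunits (Psmb genes), some of which carry the catalytic sites. The regulatory particle of ATPases (Psmc genes) and other subunits (Psmd genes) caps the core, binds ubiquitin, removes it and unfolds the substrate. Lymphocytes also make the immunoproteasome, in which Psmb8, Psmb9 and Psmb10 replace the constitutive catalytic subunits Psmb5, Psmb6 and Psmb7 and which is known for producing peptides for MHC class I.

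Library depth was 7464546 to 8980395 counts, of which the ribosomal RNA precursor Rn45s took 19.9% to 32.1% in the IPMK cKO libraries and 16.7% to 31.7% in the wild type libraries. The targeted gene, Ipmk, had 3, 21 and 0 counts in IPMK cKO replicates 1 to 3, against 129, 77 and 99 in wild type replicates 1 to 3. Its log2 fold change was −3.51 (SE 1.75, edgeR adjusted p = 0.9999), and a tag outside the deleted exons would not check the deletion. The 9 T cell and Treg markers in the files summed to 3045 to 3780 CPM (counts scaled to library size) in IPMK cKO and 3267 to 4037 CPM in wild type, against at most 66.7 and 56.3 CPM for any list of another blood cell type. From those other lists Cd8a, Adgre1, Itgax, Flt3, Clec9a, Ncr1, Klrk1, Pf4 and Ppbp had no count in any library. Other genes of the lists had counts in every library, among them Nkg7 at 13.7 to 51.8 CPM, Cd74 at 5.53 to 58.5 CPM and Cd8b1 at 2.11 to 12.2 CPM. Hba-a1 reached 45.5 CPM in wild type replicate 2. Foxp3, which defines Treg, was at 85.1, 72.0 and 82.3 CPM in IPMK cKO, against 10.3, 80.6 and 29.0 CPM in wild type. IPMK cKO replicate 1 stood apart from the other libraries. Log2 fold changes of proteasome genes described singly are also given without it where that moved them by over 1.5 times. Psmd2, whose estimate was near 0, is given with all libraries only.

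No single proteasome gene passed the test in either direction, and the genes as a set were not tested. Of the 50 genes, 49 had enough counts to be tested, and 0 were called higher or lower by edgeR (quasi-likelihood, adjusted p under 0.05), against 0% of the 10475 genes tested. DESeq2 and limma-voom also called 0 of the 49. Estimates were above 0 for 24 genes and below 0 for 25, with a median log2 fold change (IPMK cKO over wild type) of −0.05, beside 5427 above and 5048 below and a median of 0.03 over all genes tested. The median SE was 0.42 for the 49 genes and 0.68 for all genes. A gene that missed the threshold is therefore not shown to be equal between the groups.

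At an unadjusted p under 0.05 stood 1 of the 49 genes (2.04%), Psmb6, by edgeR and by DESeq2, beside 2.56% of all genes tested by edgeR. All 3 IPMK cKO libraries lay above all 3 wild type libraries for 1 gene (2.04%), Psmg4, beside 4.74% of all genes. They lay below for 2 genes (4.08%), Psmb5 and Psmd8, beside 5.66% of all genes. These shares were no larger than those of all genes.

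The proteasome genes together took 0.607%, 0.548% and 0.652% of the counts outside Rn45s in IPMK cKO replicates 1 to 3, against 0.650%, 0.601% and 0.697% in wild type replicates 1 to 3. The groups overlapped, at 0.602% ± 0.0524 in IPMK cKO and 0.649% ± 0.0481 in wild type (SD, n = 3 each). Replicate 2 was the lowest and replicate 3 the highest library of each group. The 95% interval from counting alone (exact Clopper-Pearson) was 0.601% to 0.614% for IPMK cKO replicate 1 and of like width in the others. These intervals were far narrower than the spread between libraries. They leave out every error but counting, and can understate that too, because tags without molecular identifiers can be copies of 1 molecule.

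The 14 constitutive core genes took 0.187% ± 0.0166 in IPMK cKO and 0.194% ± 0.0151 in wild type, and the 17 genes of the regulatory particle took 0.196% ± 0.0118 and 0.200% ± 0.0105 (SD, n = 3 each). The 3 immunoproteasome genes took 0.0668%, 0.0725% and 0.0991% in IPMK cKO, against 0.117%, 0.0794% and 0.119% in wild type. IPMK cKO replicate 3 lay above wild type replicate 2, so the immunoproteasome shares overlapped as well. The 8 lid genes took 0.0720%, 0.0812% and 0.0813% in IPMK cKO, against 0.0884%, 0.0912% and 0.0878% in wild type. These shares did not overlap. Summed in CPM the lid genes did not overlap either, though narrowly, at 588.0 to 625.2 CPM in IPMK cKO and 627.3 to 659.2 CPM in wild type. As shares of all counts, Rn45s included, they did, with IPMK cKO replicate 3 at 0.0651% above wild type replicate 2 at 0.0623%. These sums leave out Shfm1, a lid subunit without a Psm symbol. It had 4.64, 97.2 and 178 CPM in IPMK cKO, against 161, 115 and 132 CPM in wild type. The lid was singled out after its values were seen. Among the proteasome genes grouped by role, no other group lacked overlap in its share outside Rn45s.

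**Figure D1:**
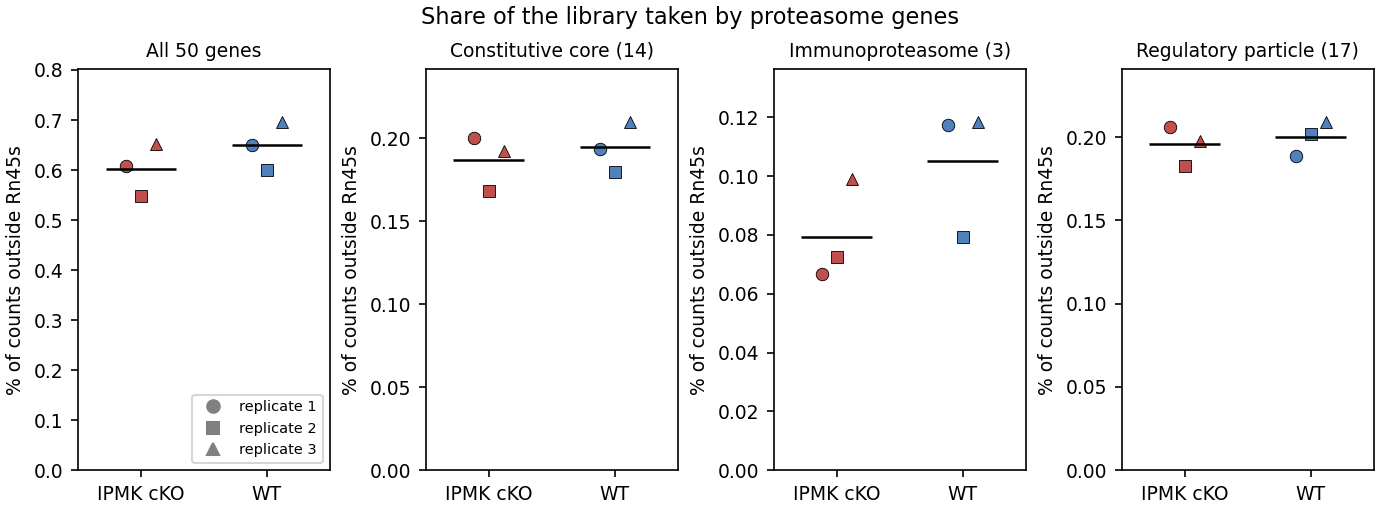
Share of the counts outside Rn45s (in percent, axis from 0) taken by all 50 proteasome genes, the 14 constitutive core genes, the 3 immunoproteasome genes and the 17 regulatory particle genes, with 1 point per library and a line at the group mean of IPMK cKO (left) and wild type (right). The groups overlap in every panel, and the immunoproteasome panel has its lowest value, 0.0668%, in IPMK cKO replicate 1 and its highest, 0.119%, in wild type replicate 3.

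The immunoproteasome genes did not share a direction. Psmb8, the β5i subunit (LMP7), had 334, 369.9 and 412 CPM in IPMK cKO replicates 1 to 3, against 578, 401 and 547 CPM in wild type. The highest IPMK cKO library lay just above the lowest wild type library, and the log2 fold change was −0.45 (SE 0.27, edgeR adjusted p = 0.9999). Psmb8 had the highest mean level of the 50 genes on this scale. Tags are read at the 3′ end of each transcript, so levels were not divided by transcript length. In GENCODE M21 (mm10) Psmb8 spans 34197721 to 34201454 on the plus strand of chromosome 17, Psmb9 spans 34181987 to 34187764 on its minus strand, and Psmb10 spans 105935735 to 105938444 on the minus strand of chromosome 8.

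Psmb9, the β1i subunit (LMP2), had 37.1, 62.6 and 234 CPM in IPMK cKO, against 166, 73.9 and 182 CPM in wild type. IPMK cKO held both the lowest and the highest library, and replicate 2 was low in both groups. The log2 fold change was −0.34 (SE 0.61) with all libraries, −1.50 without IPMK cKO replicate 3, −0.06 without IPMK cKO replicate 2 and 0.07 when IPMK cKO replicate 1 was left out. Psmb10, the β2i subunit (MECL-1), had 209, 105 and 70.9 CPM in IPMK cKO, against 88.4, 98.8 and 118 CPM in wild type. Its IPMK cKO libraries were spread on both sides of the wild type range. Its log2 fold change was 0.33 (SE 0.40), and −0.22 without IPMK cKO replicate 1. Annotated genes on the opposite strand overlap the last 500 bases of Psmb8, Psmb10, Psmb7, Psme1, Psmc3, Psma3 and Psmc3ip. How far they overlap, and whether in exons, was not measured. Counting was not stated to use strand, so reads from an overlap of such pairs may not have been told apart. Psmd1, Psme2b and Psmg3 have another annotated gene overlapping their last 500 bases on the same strand, where strand could not separate reads.

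Psmb9 lies on chromosome 17 next to Tap1, which encodes a chain of the transporter that carries proteasome products into the endoplasmic reticulum. The RefSeq start sites of both genes (GRCm38.p6) face away from each other with 225 bases between them. Tap1 had 396, 183 and 299 CPM in IPMK cKO, against 282, 222 and 256 CPM in wild type. The ratio of Psmb9 to Tap1 tag counts was 0.0938, 0.341 and 0.784 in IPMK cKO, against 0.590, 0.333 and 0.711 in wild type. IPMK cKO replicate 1 was thus high for Tap1 and low for Psmb9. Tap2, the other chain of the transporter, had 2.11, 83.9 and 337 CPM in IPMK cKO, against 324, 232 and 339 CPM in wild type, with its lowest library, like that of Psmb9, in IPMK cKO replicate 1.

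The constitutive catalytic genes had estimates of different sign and size. Psmb5 spans 54614119 to 54618022 on the minus strand of chromosome 14, Psmb6 spans 70525367 to 70527858 on the plus strand of chromosome 11, and Psmb7 spans 38588036 to 38644087 on the minus strand of chromosome 2 (mm10). Psmb5, the β5 subunit, carries the chymotrypsin-like site and had 57.1, 53.0 and 62.2 CPM in IPMK cKO, against 69.5, 69.7 and 82.3 CPM in wild type. All 3 IPMK cKO libraries lay below the wild type libraries, with a log2 fold change of −0.36 (SE 0.33, edgeR adjusted p = 0.9999). The gap between the groups was 62.2 to 69.5 CPM, and the gene was not called.

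Psmb6, the β1 subunit with the caspase-like site, had 237, 54.7 and 87.3 CPM in IPMK cKO, against 28.6, 51.2 and 79.0 CPM in wild type. The IPMK cKO replicate 1 value stood far above the other libraries, which overlapped. The log2 fold change was 1.25 (SE 0.56, edgeR unadjusted p = 0.0456, adjusted p = 0.9999), the largest estimate of the 49 genes. With IPMK cKO replicate 1 left out it was 0.42, and with both replicates 1 left out 0.12. Psmb7, the β2 subunit with the trypsin-like site, had 13.9, 51.2 and 54.5 CPM in IPMK cKO, against 27.7, 45.1 and 46.4 CPM in wild type. Its group means were nearly equal, at 39.9 and 39.7 CPM (log2 fold change 0.01, SE 0.56, and 0.41 without IPMK cKO replicate 1), and replicate 1 was the lowest library of both groups.

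Promoter windows (250 bases before to 50 after the RefSeq start site, GRCm38.p6) were given for the catalytic genes other than Psmb7, which was not searched. Of those searched, Psmb5 and Psmb6 hold the antioxidant response element TGACNNNGC in the window. It is the site bound by NFE2L1, the transcription factor that induces proteasome genes. The stretches before the start are shown, clear of annotated exons, 5′ to 3′ on the strand of the gene, with the element in capitals. They are chr14:54618023-54618245 on the minus strand for Psmb5 and chr11:70525107-70525356 on the plus strand for Psmb6.
Psmb5: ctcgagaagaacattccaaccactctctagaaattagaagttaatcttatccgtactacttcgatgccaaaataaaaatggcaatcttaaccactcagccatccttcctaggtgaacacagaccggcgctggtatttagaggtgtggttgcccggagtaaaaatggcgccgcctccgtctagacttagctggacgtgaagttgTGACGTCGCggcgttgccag
Psmb6: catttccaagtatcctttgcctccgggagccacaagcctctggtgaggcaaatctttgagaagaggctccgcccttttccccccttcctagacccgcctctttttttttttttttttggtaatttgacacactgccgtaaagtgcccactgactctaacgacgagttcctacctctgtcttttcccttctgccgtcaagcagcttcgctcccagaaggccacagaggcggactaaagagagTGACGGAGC
The element lies 47 to 39 bases before the start site in Psmb5 and 9 to 1 bases before it in Psmb6.

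Both genes hold the element, and neither was called. Whether the element bears on their levels was not tested. Promoter windows were given for 42 of the 50 genes, and the element stood on either strand in 6 of them (14.3%), Psmb5, Psmb6, Psmc6, Psmd12, Psmd9 and Psme4, beside 13.99% of the 27025 genes with a window. The interferon-stimulated response element, searched on both strands, was in 5 windows (11.9%), Psmb3, Psmd4, Psmd9, Psme1 and Psmg4, beside 3.99% of all genes. The CCAAT box CCAAT was in 15 windows (35.7%), Psmb9 among them, beside 41.1% of all genes. The printed stretches hold no match to the interferon element or the CCAAT box, and a match describes letters only.

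**Figure D2:**
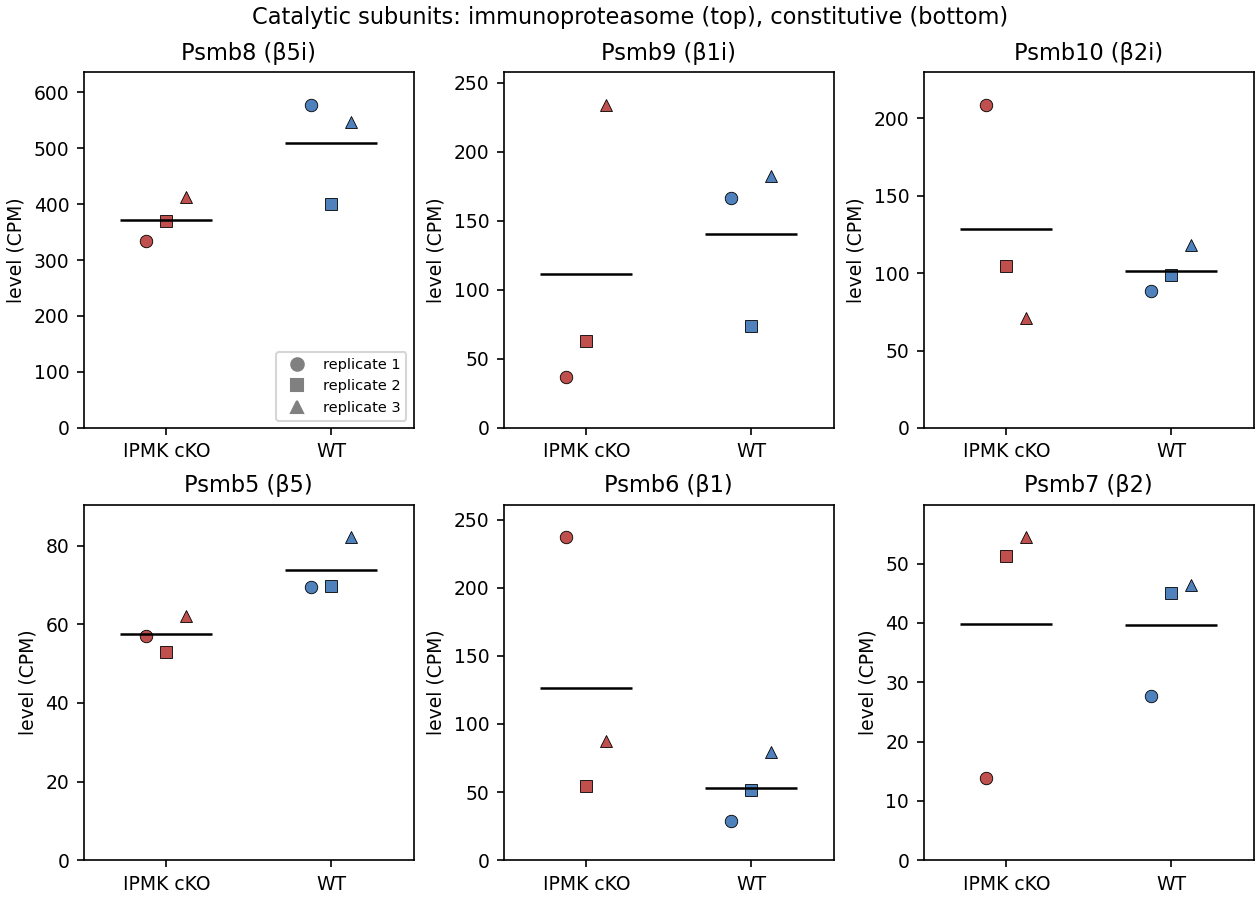
Levels in CPM (axes from 0) of the immunoproteasome subunits Psmb8, Psmb9 and Psmb10 and of the constitutive catalytic subunits Psmb5, Psmb6 and Psmb7, with 1 point per library and a line at the mean of the 3 IPMK cKO (left) or 3 wild type (right) libraries. Psmb5 is the panel without overlap, and IPMK cKO replicate 1 is highest for Psmb6 at 237 CPM and for Psmb10 at 209 CPM and lowest for Psmb9 at 37.1 CPM.

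The balance of immunoproteasome to constitutive subunits was compared within each library, which frees it from library scaling. The Psmb8 to Psmb5 ratio of tag counts was 5.85, 6.97 and 6.63 in IPMK cKO, against 8.31, 5.75 and 6.64 in wild type. The groups overlapped, with means of 6.48 ± 0.576 in IPMK cKO and 6.90 ± 1.30 in wild type (SD, n = 3 each). It was the steadiest of the 3 pairs.

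The Psmb9 to Psmb6 ratio was 0.156, 1.14 and 2.68 in IPMK cKO, against 5.80, 1.44 and 2.31 in wild type. IPMK cKO replicate 1 was the lowest library and wild type replicate 1 the highest. The Psmb10 to Psmb7 ratio was 15.0, 2.05 and 1.30 in IPMK cKO, against 3.20, 2.19 and 2.54 in wild type. Here IPMK cKO replicate 1 was the highest library, so the same library was extreme in opposite directions in these pairs. Summed over the 3 pairs the ratio was 1.88, 3.38 and 3.52 in IPMK cKO, against 6.61, 3.45 and 4.08 in wild type.

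**Figure D3:**
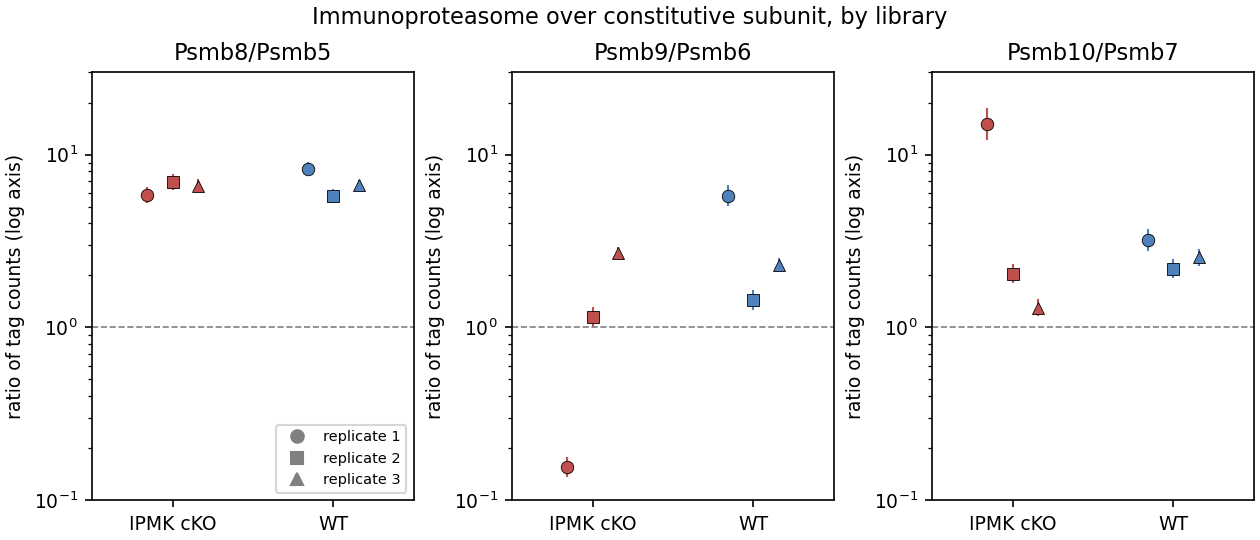
Ratio of tag counts (log axis) of each immunoproteasome subunit to the constitutive subunit it replaces, with 1 point per library, its 95% counting interval as a bar, and a dashed line at a ratio of 1, for IPMK cKO (left) and wild type (right). Psmb8 to Psmb5 stays between 5.75 and 8.31 in all 6 libraries, whereas IPMK cKO replicate 1 is at 0.156 for Psmb9 to Psmb6 and at 15.0 for Psmb10 to Psmb7.

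The other core genes showed no common shift. In the alpha ring 4 of 7 log2 fold changes were positive and 3 negative, with a median of 0.06. Psma7 was the most even and most abundant of them, at 263 ± 40.1 CPM in IPMK cKO and 251 ± 17.6 CPM in wild type (SD, n = 3 each). Psma2 had 90.3, 116 and 184 CPM in IPMK cKO, against 229.6, 164 and 206 CPM in wild type. Its groups overlapped, with a log2 fold change of −0.62 (SE 0.33), with −0.42 when IPMK cKO replicate 1 was left out and −0.96 when IPMK cKO replicate 3 was. Psma6 had 243, 89.9 and 89.2 CPM in IPMK cKO, against 70.5, 97.4 and 106 CPM in wild type. Its estimate of 0.62 (SE 0.43) came to −0.03 without IPMK cKO replicate 1.

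Psma1, Psma3, Psma4 and Psma5 had estimates from −0.73 to 0.26. Psma5 was near absent from IPMK cKO replicate 1, at 0.704 CPM, beside 13.0 to 45.1 CPM in the other libraries. Among the beta subunits without catalytic activity, Psmb1, Psmb3 and Psmb4 had estimates from −0.35 to 0.13. Psmb2 was low throughout, at 0.281, 11.8 and 7.61 CPM in IPMK cKO, against 2.29, 11.8 and 21.8 CPM in wild type. Replicate 1 was its lowest library in both groups. Psmb11, the thymus-specific catalytic subunit, was at 1.12 to 2.67 CPM in IPMK cKO and 1.46 to 1.80 CPM in wild type. Psma8, the testis-specific alpha subunit and the gene too low to test, had no count in IPMK cKO and a level of 1.32 CPM in wild type replicate 1 only.

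The regulatory particle, which recognises and unfolds ubiquitin-tagged proteins, had 9 of 17 log2 fold changes above 0, with a median of 0.01. The 6 ATPases that drive unfolding, Psmc1 to Psmc6, had a median of −0.07. Psmc3 had 218, 139 and 117 CPM in IPMK cKO, against 117, 120.0 and 78.7 CPM in wild type. The groups overlapped narrowly, since IPMK cKO replicate 3 lay just below wild type replicates 1 and 2, and the log2 fold change was 0.59 (SE 0.34), or 0.27 without IPMK cKO replicate 1, the highest library. Psmc1, Psmc2, Psmc4, Psmc5 and Psmc6 had estimates from −0.55 to 0.38.

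The scaffold subunits Psmd1 and Psmd2 were at 96.0 ± 22.7 and 105 ± 17.6 CPM in IPMK cKO, against 88.9 ± 31.1 and 104.6 ± 9.04 CPM in wild type (SD, n = 3 each). With all libraries Psmd2 had the estimate nearest 0 of the 49 genes, at 0.01 (SE 0.30). Its lowest library was IPMK cKO replicate 1, at 89.8 CPM, beside 96.3 to 124 CPM in the others. Psmd4, a receptor for ubiquitin chains, had 469, 152 and 208 CPM in IPMK cKO, against 177, 171 and 211 CPM in wild type. IPMK cKO replicate 1 stood alone above the other 5 libraries. The estimate was 0.57 (SE 0.40) with it and −0.06 without it.

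Among the 8 lid genes, 3 log2 fold changes were positive and 5 negative (median −0.07). Psmd14, the deubiquitinase that removes ubiquitin chains as substrates enter, had 9.71, 77.9 and 34.9 CPM in IPMK cKO, against 68.2, 56.0 and 80.5 CPM in wild type. Its IPMK cKO libraries included the lowest and one near the highest, with an estimate of −0.74 (SE 0.61) that was −0.28 with IPMK cKO replicate 1 left out and −1.62 with IPMK cKO replicate 2 left out. Psmd8 had 82.0, 99.6 and 73.2 CPM in IPMK cKO, against 106, 117 and 107 CPM in wild type. Its groups did not overlap, with a log2 fold change of −0.37 (SE 0.30, edgeR adjusted p = 0.9999).

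Psmd11 and Psmd7, also of the lid, had estimates of opposite sign. Psmd11 had 21.5, 78.5 and 78.3 CPM in IPMK cKO, against 135, 77.6 and 91.7 CPM in wild type (−0.77, SE 0.48, −0.38 when IPMK cKO replicate 1 was left out, and −0.11 when wild type replicate 1 was left out as well). Psmd7 had 255, 141 and 119.6 CPM in IPMK cKO, against 71.1, 163 and 124 CPM in wild type (0.52, SE 0.40, and 0.12 without IPMK cKO replicate 1). Both sets of libraries overlapped. Psmd3, Psmd6, Psmd12 and Psmd13 had estimates from −0.09 to 0.17.

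The alternative caps did not pass either. Psme1 and Psme2 encode the subunits of PA28, the activator that interferon induces together with the immunoproteasome. Psme1 had 693, 284 and 361 CPM in IPMK cKO, against 369.7, 334 and 369 CPM in wild type. The wild type libraries were close together, and the estimate was 0.32 (SE 0.34), or −0.15 without IPMK cKO replicate 1. Psme2 had 82.0, 106 and 162 CPM in IPMK cKO, against 133, 115 and 118 CPM in wild type (−0.07, SE 0.33, and 0.13 without IPMK cKO replicate 1).

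Psme2b had 129.7, 282 and 268 CPM in IPMK cKO, against 316, 252 and 305 CPM in wild type (−0.36, SE 0.33). Its lowest library was IPMK cKO replicate 1, and the estimate was −0.09 without it and −0.02 without both libraries numbered 1. It is annotated with 1 exon on chromosome 11 (48945354 to 48946190, minus strand, mm10), while Psme2 lies on chromosome 14. Their longest coding transcripts in GENCODE M21 were 99.4% identical over 794 aligned positions, with a run of 341 identical bases, so the split of reads between them is uncertain. The ratio of Psme2b to Psme2 counts was 1.58 to 2.66 in IPMK cKO and 2.19 to 2.58 in wild type. Psme3, which encodes a nuclear activator, had 34.8 ± 15.5 CPM in IPMK cKO and 27.6 ± 17.8 CPM in wild type, and Psme4, which encodes PA200, had 47.1 ± 15.9 and 51.6 ± 9.09 CPM (SD, n = 3 each). Psmf1, which encodes the inhibitor PI31, had 44.1 ± 24.9 CPM in IPMK cKO and 32.5 ± 12.4 CPM in wild type (SD, n = 3 each). With single libraries left out the estimate of Psme3, 0.33, ran from −0.13 to 0.64, that of Psme4, −0.13, from −0.38 to 0.08, and that of Psmf1, 0.44, from −0.10 to 0.77.

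Among the assembly factors, Psmg4, a chaperone of core assembly, had 44.0, 42.3 and 43.3 CPM in IPMK cKO, against 16.4, 34.3 and 40.3 CPM in wild type. All 3 IPMK cKO libraries were higher, and wild type replicate 1 was the lowest (log2 fold change 0.51, SE 0.48, edgeR adjusted p = 0.9999). Without that library the estimate was 0.21. The other core chaperones, Psmg1, Psmg2 and Psmg3, had estimates from −0.77 to −0.22, and the chaperones of the regulatory particle base, Psmd5, Psmd9 and Psmd10, from −0.43 to 0.39. Psmc3ip, the recombination cofactor, was at 0.281, 9.41 and 15.3 CPM in IPMK cKO, against 11.7, 14.3 and 14.8 CPM in wild type. Without it the median over the tested genes was −0.02.

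**Figure D4:**
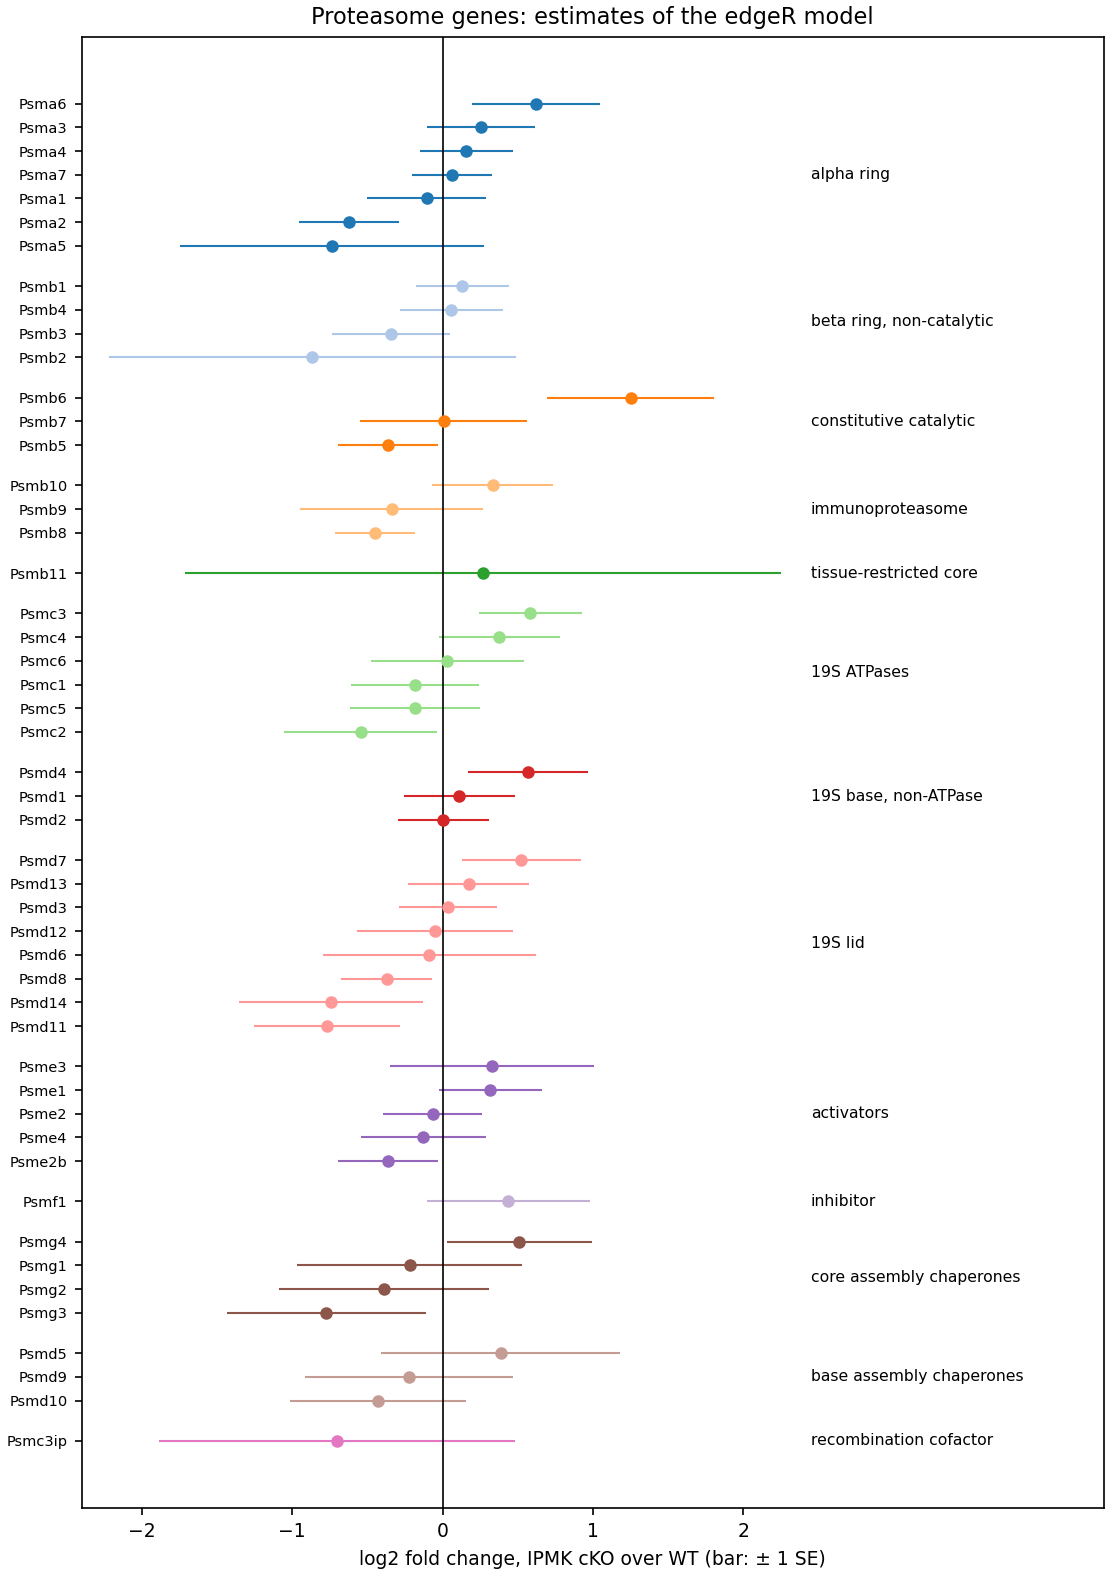
Estimated log2 fold change of IPMK cKO over wild type with ± 1 SE for the 49 tested proteasome genes, grouped by role down the page, with a line at 0. None was called, 34 of the 49 estimates lie within 1 SE of 0, and 1, that of Psmb6 at 1.25, lies more than 2 SE from it.

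IPMK cKO replicate 1 departed from the other libraries gene by gene. It held the highest or the lowest level of 34 of the 49 genes (15 highest and 19 lowest), beside 5 to 18 genes for each other library. There 19 genes, 5 higher and 14 lower, differed by over 2-fold from the other 5 libraries' median, beside 1 to 8 genes in each other library. All genes behaved likewise, with 52.0% more than 2-fold away in that library (38.8% of the proteasome genes) and 19.6% to 32.7% in the others.

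The lowest there were Psmc3ip, Psmb2, Psma5 and Psmd14, at log2 deviations of −4.80, −4.52, −4.49 and −2.78, while Psmb6, Psma6 and Psmd4 were the highest, at 2.11, 1.43 and 1.40. The share of all proteasome genes outside Rn45s there, 0.607%, lay inside the range of the other libraries, while their summed level of 5276 CPM was the highest, beside 4061 to 4977 CPM in the others. The median log2 level of the 49 genes relative to the wild type mean was −0.16, −0.09 and −0.01 in IPMK cKO replicates 1 to 3, against −0.05, −0.03 and 0.12 in wild type. The groups overlapped there too. RNA quality and sorting were not measured in these files, and their part in the departures was not tested.

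**Figure D5:**
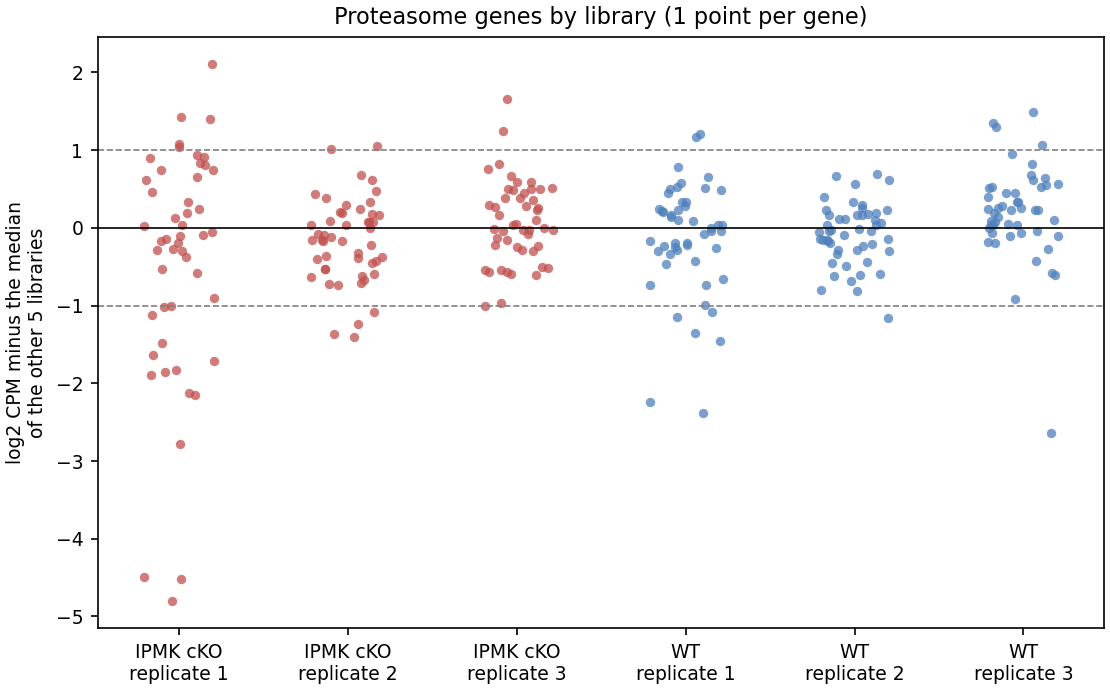
Log2 CPM of each of the 49 tested proteasome genes minus the median of the other 5 libraries, with 1 point per gene in each library (IPMK cKO on the left, wild type on the right) and dashed lines at a 2-fold difference. IPMK cKO replicate 1 has the widest spread (SD 1.52), beside 0.40 to 0.73 in the other libraries.

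Other genes of the ubiquitin and proteasome system were read from lists of 59 symbols, of which 54 were in the files and 53 were tested. None passed by edgeR, 28 estimates were above 0 and 25 below, the median log2 fold change was 0.05, and 1, that of Nfkb1, had an unadjusted p under 0.05, beside 2.56% of all genes. All IPMK cKO libraries lay above wild type for 1 of the 53, Irf2, beside 4.74% of all genes, and below for 2, Txnl1 and Nfkb1, beside 5.66%. Estimates with libraries left out are not given for the single genes of these lists. Of 10 tested partners of the proteasome, 5 were above 0 and 5 below. Txnl1, a thioredoxin-like protein bound to the regulatory particle, had 23.4, 34.8 and 35.2 CPM in IPMK cKO, against 79.9, 43.2 and 40.5 CPM in wild type. Its IPMK cKO libraries all lay below wild type (−0.81, SE 0.46). Pomp, which helps the core mature, had 233 CPM on average in IPMK cKO and 269 CPM in wild type (−0.21, SE 0.26). Shfm1, the small lid subunit now named Sem1, was at 4.64, 97.2 and 178 CPM in IPMK cKO, against 161, 115 and 132 CPM in wild type, with the low value again in IPMK cKO replicate 1.

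Of 5 tested genes of ubiquitin and its activation, 3 had estimates above 0 and 2 below. The activating enzyme Uba1 had 587, 328 and 373 CPM in IPMK cKO, against 387, 362 and 388 CPM in wild type (0.18, SE 0.29). Of the 11 tested shuttles and unfoldase genes, 5 were above 0 and 6 below. Vcp, the p97 unfoldase, was at 0.27 (SE 0.33). It had 427, 227 and 252 CPM in IPMK cKO, against 203, 215 and 331 CPM in wild type. Its cofactors Nploc4 and Ufd1l were at −0.54 (SE 0.58) and −0.45 (SE 0.55), with Ufd1l lowest in IPMK cKO replicate 1, at 19.8 CPM.

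Genes that control proteasome transcription did not pass either. Nfe2l1 had 86.8, 51.2 and 37.0 CPM in IPMK cKO, against 45.8, 48.9 and 46.0 CPM in wild type (0.31, SE 0.42). Nrd1, which encodes nardilysin, a peptidase, was at 0.58 (SE 0.32), and Hsf1, the heat shock factor, at −0.41 (SE 0.64), among 5 tested genes with 3 above 0. Nrd1 was highest in IPMK cKO replicate 1, at 556 CPM, beside 224 to 307 CPM in the other libraries. Hsf1 was lowest there, at 8.02 CPM, beside 21.3 to 27.5 CPM in the others. For the immunoproteasome, 9 of 13 tested regulators were above 0 and 4 below. Irf1, which drives transcription of Psmb9 and Tap1, had 301, 314 and 528 CPM in IPMK cKO, against 478, 420.2 and 428 CPM in wild type (−0.21, SE 0.29). Its groups overlapped.

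Nfkb1, the p105 precursor that the proteasome processes to the NF-kappaB subunit p50, had 16.6, 45.2 and 47.4 CPM in IPMK cKO, against 92.6, 79.9 and 99.6 CPM in wild type. Its groups did not overlap, with a log2 fold change of −1.32 (SE 0.44, edgeR unadjusted p = 0.0128, adjusted p = 0.9999). Irf2 had 359.5, 342 and 349 CPM in IPMK cKO, against 245, 313 and 229.97 CPM in wild type (0.42, SE 0.26), also without overlap. Nlrc5, the activator of MHC class I genes, had 278, 195 and 91.2 CPM in IPMK cKO, against 87.7, 127 and 105 CPM in wild type (0.82, SE 0.40), with overlap. Of the 9 genes of MHC class I processing, 3 were above 0 and 6 below. Tapbp was at 0.35 (SE 0.32), H2-D1 at −0.53 (SE 0.41) and H2-K1 at −0.29 (SE 0.27). IPMK cKO replicate 1 was the highest library for Tapbp and the lowest for H2-D1 and H2-K1. Tapbp had 1137, 539 and 596 CPM in IPMK cKO, against 553, 619 and 611 CPM in wild type. H2-D1 had 654, 1910 and 2457 CPM, against 2569, 1996 and 2695 CPM. H2-K1 had 2336, 3837 and 3476 CPM, against 3958.5, 4092 and 3781 CPM.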

How the data were processed

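Per the labels' protocols, RNA was extracted with Trizol and made into Lexogen QuantSeq libraries, which sequence transcripts from their 3′ end. Each deposited table lists raw counts for 23282 gene symbols. The submitters' processing notes name Bowtie2, edgeR, mm10 and hg19 without saying what each was used for. No source used here gives the counter, annotation, strand setting or filters.

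The counts went into edgeR 4.0.16 (R 4.3.3): TMM scaling, filterByExpr (minimum 10 counts, 10475 genes kept), glmQLFit and glmQLFTest, Benjamini-Hochberg adjustment over all genes tested. CPM use the TMM-scaled library sizes, and SE is the estimate over the square root of F. The filter and test were run on simulated data with the scatter of these libraries, and missed most genes changed 4-fold. DESeq2 1.42.0, limma-voom (limma 3.58.1), other scalings and filters, the replicate number as a block and libraries left out were alternatives. Depth was 7464546 to 8980395 counts. The proteasome genes, their roles and the other lists were chosen with earlier results of these data known. Named genes were the catalytic subunits, Psme1 to Psme4, Psmd14, Psmd4 and Psmf1, the 5 lowest p-values above 0 and below 0, those without overlap, the 3 most abundant, the untested gene, and in each list the 3 with the smallest p, plus Nfe2l1 and Irf1. Some genes that these rules name are not reported here. Psma5, Psma7, Psmb2, Psmb11, Psmc3ip, Psmd1, Psmd2, Psmd3, Tap1, Tap2 and the further genes given were named after their values were seen. Positions are from GENCODE M21 (mm10), in which all 50 symbols were found, and promoters from RefSeq (GRCm38.p6). Another annotated gene, introns included, overlapped the last 500 bases of 10 of the 50 genes at least in part.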

Additional observations from a re-analysis of the deposited data

How the results depend on the processing

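No proteasome gene was called under any of the 17 alternatives. Over all genes 3 were called by DESeq2, 1 with both libraries numbered 1 left out, and 0 to 1 with single libraries left out (1 without IPMK cKO replicate 1), against 0 with all libraries by edgeR. The median log2 fold change of the proteasome genes, −0.05, was −0.19 with library totals only, where the median of all genes was −0.17 and 14 of 49 estimates were above 0. With single libraries left out the immunoproteasome median, −0.34, ran from −0.61 to −0.064. The difference in summed share, −0.0470 percentage points, was 0.00412 on TMM-scaled library sizes, so its sign rests on the denominator. For the 21 named genes tested, 340 of 357 estimates moved by less than 1 SE and 24 had the other sign. The 17 that moved by 1 SE or more all came from leaving libraries out. Psma6, Psmb6, Psmb10, Psmd4, Psmd7 and Psme1 moved so without IPMK cKO replicate 1. With both libraries numbered 1 left out, the same genes moved, and so did Psmd11 and Psme2b. With the replicate number as a block 0 genes were called, the median was −0.07 and that of the immunoproteasome −0.44. Same-numbered libraries correlated at 0.05, 0.09 and 0.03 in their deviations from the group means, each library best with its own number, and no label ties the numbers together.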
